A study of Drosophila melanogaster with 2 samples.

Results

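The genes described here are the eukaryotic translation initiation factor (eIF) genes of Drosophila melanogaster, chosen by name as the protein-coding genes whose symbol in the Ensembl release 115 annotation begins with eIF and a digit. There are 44 of them among 13968 protein-coding genes on the chromosome arms that hold peaks. The data are chromatin immunoprecipitation and sequencing (ChIP-seq) with an anti-GFP antibody on whole embryos of mixed sex, aged 4 to 20 h, from a transgenic line (Bteb2-GFP) with GFP on the C-terminal end of Bteb2. The age is that of the source name, since the age field of the labels is damaged, and the antibody field reads Bteb2 where the description gives anti-GFP. Chromatin was sonicated to 200 to 800 bp. Bteb2 is the product of Klf15, a zinc finger gene of the KLF family, and the tagged line stands for the native protein only as far as the tag and its level of expression allow. Both libraries belong to 1 group, labelled biological replicates 1 and 3. There was no other condition to compare with, whole embryos mix all cell types and many stages, and neither control lists nor lists of other GFP-tagged factors were analysed here. Peak lists hold no expression, so the tissue could not be checked by markers. Sites of the tagged protein were not told apart from regions that such experiments recover in general.

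Initiation factors bring the small ribosomal subunit, the initiator tRNA and the capped mRNA together. The eIF2 trimer carries the initiator tRNA in a complex with GTP, and eIF2B recharges eIF2 with GTP. The large eIF3 assembly binds the small subunit and serves as a scaffold. Of the eIF4 proteins, eIF4E holds the mRNA cap, eIF4G bridges it to the ribosome and eIF4A, helped by eIF4B and eIF4H, unwinds the leader. Others choose the start codon (eIF1, eIF1A, eIF5), join the subunits (eIF5B) or keep them apart until the large one is mature (eIF6). These proteins are needed in all growing cells, and several of the genes have duplicates in the fly.

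A gene was counted as having a peak when the summit of a peak was no more than 1000 bp from an annotated transcription start site (TSS) of that gene, and all coordinates are on dm6. Candidate (relaxed) lists of 30000 peaks were deposited by the authors for each replicate and for the pool of both. The optimal set holds 3350 peaks that passed their filter on reproducibility (irreproducible discovery rate), all of which are also in the pooled list. Peaks are given by their rank by the authors' signal value within a list, where 1 is the strongest. Read depth is unknown. The signal values of the optimal peaks ran from 65.9 to 1369 with a median of 98.8, and their −log10 q-value was 3.95 throughout. The relaxed lists hold background by the authors' own name for them, down to a −log10 q-value of 0.180 in the pooled list, so a weak relaxed peak need not be a bound site.

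Of the 44 eIF genes, 11 had an optimal peak, or 25.0%, against 20.4% of all protein-coding genes (2848 of 13968). They are eIF2Bbeta, eIF6, eIF4EHP, eIF1, eIF3c, eIF3m, eIF2A, eIF2D, eIF3h, eIF3a and eIF3l, in order of falling signal. The members' share lies near the background and is no result about the eIF genes as a group. Under stricter rules the gap to the background, in percentage points, was wider in some cases and narrower in others. In the stronger 1675 optimal peaks it was wider, with 8 members (18.2%, background 11.5%). Within 250 bp of a TSS it was wider in the strongest peaks of replicate 3, with 11 (25.0%, background 14.4%). At the same limit it was narrower in the optimal set (18.2%, background 14.8%) and in the strongest peaks of replicate 1 (18.2%, background 14.6%). In both of these, the shares of members and background fell together from those within 1000 bp. In the pooled relaxed list 31 members had a peak (70.5%) against 62.4% of all protein-coding genes, with a median best rank of 4607 for members and 5960 for all genes with such a peak. Among the 3350 strongest peaks of replicate 1 the members with a peak numbered 11 (25.0%, background 20.3%), and among those of replicate 3 there were 12 (27.3%, background 20.2%). The difference between members and background was not tested.

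What follows describes, gene by gene, which members held the strong peaks and how near these were. In 5 of the 11 genes another annotated TSS was closer to the summit than the eIF gene's own. When each summit was given only to the gene with the nearest TSS, 6 members were left (13.6%, background 14.2%), namely eIF2A, eIF2D, eIF3a, eIF3c, eIF3h and eIF3m. Of these 6 genes, 4 encode subunits of eIF3, the class that supplies 16 of the 44 members, and eIF3a is among them by a margin of 34 against 36 bp.

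**Figure D1:**
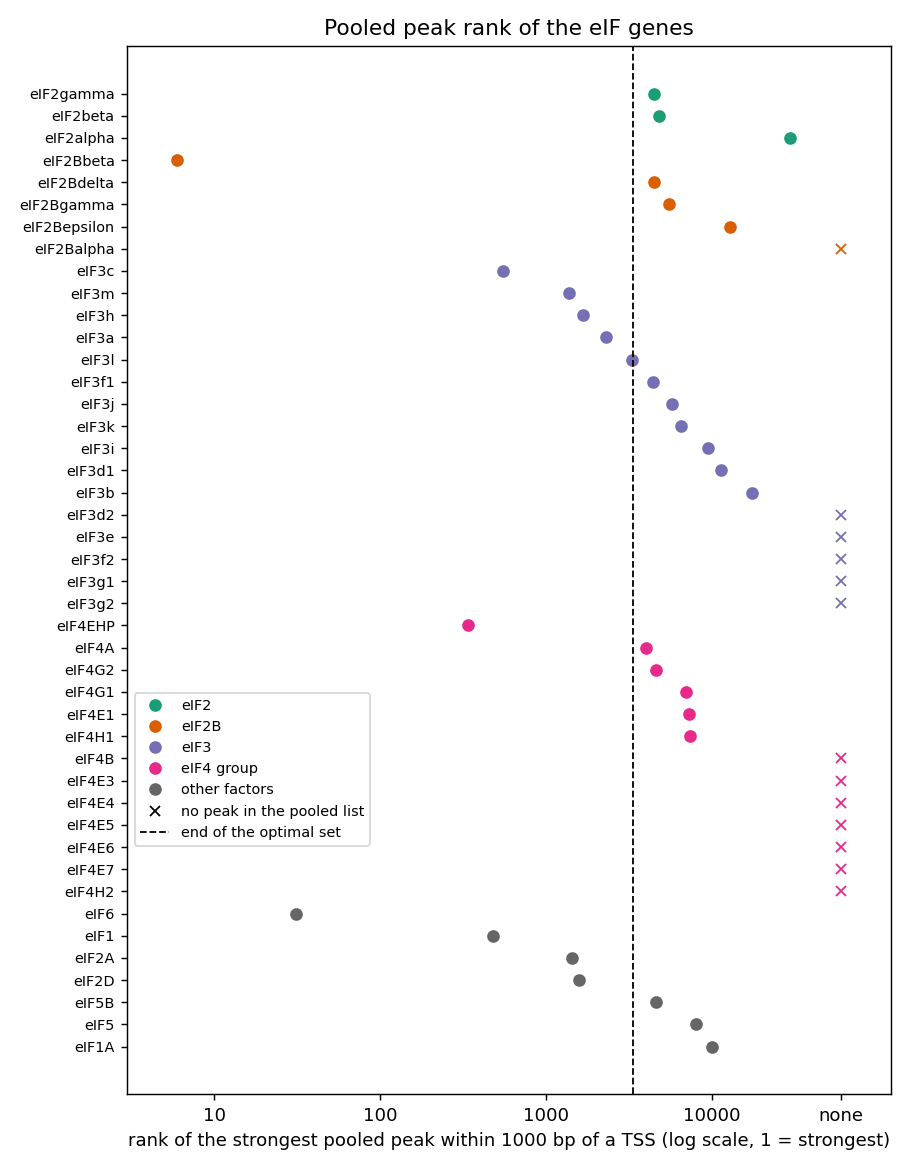
Rank of the strongest pooled peak within 1000 bp of a TSS (x axis, log scale) for each of the 44 eIF genes (y axis), coloured by factor complex; crosses are genes with no peak in the pooled list and the dashed line is the end of the optimal set at rank 3350. Ranks run from 6 for eIF2Bbeta to 29803 for eIF2alpha, and 11 genes lie left of the line.

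The sequences under the summits were read from the Release 6 genome for the peaks that carry a DRE, motif 1 or ACACTG, together with the strongest peak. Each is 201 bp around an optimal summit, in the direction of the eIF gene, and capitals mark the DNA replication-related element (DRE) TATCGATA, which is bound by DREF, motif 1 (GGTCACACT, the site of M1BP), or the word ACACTG, searched on both strands. ACACTG overlaps the end of motif 1, so that in eIF3l both lie in the same capitals, there on the other strand. The windows lie at chrX:2703794-2703994 (plus strand) for eIF2Bbeta, chr3L:3222935-3223135 (plus strand) for eIF1, chr3L:21824811-21825011 (plus strand) for eIF2A, chr3R:4433829-4434029 (minus strand) for eIF3a and chr3L:12146350-12146550 (minus strand) for eIF3l.
eIF2Bbeta: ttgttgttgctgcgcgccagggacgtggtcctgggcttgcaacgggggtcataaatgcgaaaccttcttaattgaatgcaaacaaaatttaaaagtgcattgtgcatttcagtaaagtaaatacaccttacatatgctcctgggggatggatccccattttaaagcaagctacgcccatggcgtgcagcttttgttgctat
eIF1: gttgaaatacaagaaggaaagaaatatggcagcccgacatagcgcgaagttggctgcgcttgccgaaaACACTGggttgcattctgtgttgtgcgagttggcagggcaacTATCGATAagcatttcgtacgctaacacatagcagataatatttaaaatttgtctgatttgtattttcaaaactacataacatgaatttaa
eIF2A: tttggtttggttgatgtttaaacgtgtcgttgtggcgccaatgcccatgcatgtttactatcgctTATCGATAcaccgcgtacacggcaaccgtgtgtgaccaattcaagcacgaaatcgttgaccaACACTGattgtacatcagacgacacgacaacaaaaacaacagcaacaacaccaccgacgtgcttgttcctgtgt
eIF3a: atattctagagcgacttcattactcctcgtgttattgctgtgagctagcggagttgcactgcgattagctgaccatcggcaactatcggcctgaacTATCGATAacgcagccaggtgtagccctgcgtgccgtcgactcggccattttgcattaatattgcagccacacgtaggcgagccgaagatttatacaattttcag
eIF3l: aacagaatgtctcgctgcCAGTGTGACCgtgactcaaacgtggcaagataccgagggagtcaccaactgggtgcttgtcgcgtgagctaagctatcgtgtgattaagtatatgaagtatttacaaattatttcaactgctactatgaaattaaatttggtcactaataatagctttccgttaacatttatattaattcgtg

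The DRE was present in 3 of the 12 optimal windows at members, those of eIF1, eIF2A and eIF3a, while 5.01% of all 3350 optimal windows held it. The full set includes summits at any distance from a TSS, whereas member summits all lie within 1000 bp of one. Shares over summits near a TSS alone were not taken, here or for the words and GC content below. The centre of the DRE lay 0.5 bp from the summit in eIF3a, 13.5 bp in eIF1 and 31.5 bp in eIF2A. The eIF1 summit was itself 75 bp from the start of the gene RpL28 and 306 bp from that of eIF1. The median distance of centre and summit over the 168 optimal windows with a DRE was 42 bp. In eIF3a the summit thus fell on the element. Motif 1 was found in the window of eIF3l alone, against 2.09% of optimal windows, and ACACTG in those of eIF1, eIF2A and eIF3l, against 19.9%. The window of eIF2Bbeta held none of them. KLF and SP proteins bind GC-rich and CACCC-type boxes, searched on both strands as the word GGGCGGG, the word GGGCGTG, the word GGGTGGG or the word GGGTGTG. These boxes occurred in 2 member windows, of eIF6 and eIF3c, against 3.79% of optimal windows. The TATA word TATAAA was present in 5 member windows, of eIF6, eIF4EHP, eIF3m, eIF3a and eIF3l, against 34.2% of optimal windows. CAGCTG was found in 1 member window (eIF3h) against 10.3%, GAGAG in 1 (eIF3c) against 21.1%, and ACAGTG in 0 of 12 against 19.0%. The median GC content was 42.0% over the 12 member windows (range 22.4 to 49.3%) and 35.3% over all optimal windows. A match is a description of the letters and does not show that a protein sits there.

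Promoters of the eIF genes, taken from 250 bp before to 50 bp after every TSS, held a DRE in 13 of 44 genes (29.5%), against 30.4% of cytoplasmic ribosomal protein genes (28 of 92) and 10.2% of all protein-coding genes. Genes with an optimal peak accounted for 6 of these 13 (eIF2A, eIF2Bbeta, eIF3a, eIF3c, eIF3l and eIF6). Among them, the summit windows of eIF2A and eIF3a held a DRE, and those of eIF2Bbeta, eIF3c, eIF3l and eIF6 did not. Of the 31 members with no DRE in the promoter, 5 had an optimal peak, among them eIF1, whose DRE lay outside its promoter window. Over all protein-coding genes an optimal peak was found at 31.5% of those with a DRE in the promoter and at 19.1% of those without. For cytoplasmic ribosomal protein genes these shares were 78.6% and 71.9%. The other members with a DRE were eIF1A, eIF2alpha, eIF2gamma, eIF3f1, eIF4A, eIF4B and eIF4E6. Genes with several TSSs were searched over several windows, which raises their chance of a match.

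The TCT initiator, a polypyrimidine start site typical of ribosomal protein genes and of some other translation genes, was looked for as TCTTT or CCTTT with the base after the first letter within 5 bp of a TSS. It was present in 4 of 44 eIF genes (9.09%), in 56 of 92 cytoplasmic ribosomal protein genes (60.9%) and in 3.31% of all protein-coding genes. The members were eIF3f1, eIF3i, eIF3m and eIF4A, of which eIF3m had an optimal peak. The starts of the other 3 genes are shown over 30 bp with the element in capitals, at chr3R:4714168-4714197 (minus strand) for eIF3f1, chr2L:4967761-4967790 (minus strand) for eIF3i and chr2L:5981749-5981778 (plus strand) for eIF4A. The lower-case letters of eIF3f1 hold the DRE just before the annotated start, and those of eIF3i hold motif 1 across it.
eIF3f1: cccgcactatcgataggcCCTTTtcttgca
eIF3i: taggccacggtcacactgcTCTTTtggcgt
eIF4A: cttttgcaagatggagccTCTTTtgcttgg

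The eIF3 complex, the largest class, had an optimal peak at 5 of 16 genes (31.2%, against 20.4% of all protein-coding genes). The 16 genes include duplicates of eIF3d, eIF3f and eIF3g. eIF3c, a core subunit whose yeast counterpart contacts eIF1 and eIF5, had the strongest of these peaks (rank 553, signal 173, 2R from 17665479 to 17665894), with the summit 9 bp downstream of its TSS in the 5′ UTR. The overlapping peak ranked 481 in replicate 1 and 838 in replicate 3. The TSS of CCHa1-R, a neuropeptide receptor gene, was the other one in reach, 619 bp from this summit on the side of the eIF3c start, so the peak sat on the start of eIF3c.

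eIF3m had its summit 20 bp downstream of a TSS, again in the 5′ UTR (rank 1390, signal 110, 2R from 14164597 to 14165012), and ranked 1697 in replicate 1 and 800 in replicate 3. The divergent gene CG8323 starts 246 bp from this summit. eIF3h was the only member with 2 optimal peaks within 1000 bp. Their summits lay 11 bp downstream of the TSS (rank 1689, signal 98.5, 2L from 5052561 to 5052976) and 250 bp downstream, in an intron (rank 1823, signal 94.3). In replicate 1 the strongest overlapping peak had its summit at the intronic position (rank 1514), and in replicate 3 it lay 39 bp from the start site summit (rank 1656). The replicates thus differed in which of the neighbouring summits was the stronger. The gene senju, on the opposite strand, which encodes a nucleotide sugar transporter, starts 74 bp from the summit at the start.

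eIF3a, the largest scaffold subunit, had a peak 34 bp upstream of its TSS (rank 2298, signal 82.7, 3R from 4433721 to 4434136), with ranks of 2805 in replicate 1 and 1895 in replicate 3. The divergent gene CG1074 starts 36 bp from the same summit, and the DRE shown above lies between both starts. The peak cannot be assigned to either gene by distance. eIF3l, a subunit found in animals and plants but not in budding yeast, lay near the end of the optimal set (rank 3307, signal 66.4, 3L from 12146242 to 12146657). Its summit was 353 bp upstream, while the start of the divergent gene Nrx-IV, which encodes a septate junction protein, was 69 bp away. It ranked 3449 in replicate 1 and 3757 in replicate 3, the only one of the 11 genes outside the strongest 3350 peaks of both.

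Weaker pooled peaks were found at 6 other eIF3 genes. eIF3f1 had the strongest of them (rank 4466, summit 4 bp downstream of the TSS), followed by eIF3j (5785), eIF3k (6547), eIF3i (9562), eIF3d1 (11457) and eIF3b (17434). For eIF3j the replicates lay far apart, at rank 4349 in replicate 1 and 20762 in replicate 3, and eIF3i had no peak in replicate 3. The −log10 q-value of eIF3b was 0.464, close to the floor of the list. eIF3e and eIF3g1 had a peak in replicate 3 alone, at ranks 22794 and 20941. The duplicates eIF3d2, eIF3f2 and eIF3g2 had none in any list.

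eIF2 and eIF2B, which work on the same GTP cycle, had optimal peaks at 0 of 3 and 1 of 5 genes. These shares, 0 and 20.0%, stand beside 20.4% of all protein-coding genes. None of the 3 eIF2 genes had an optimal peak. eIF2gamma, the GTP-binding subunit, ranked 4505 in the pooled list (48 bp upstream, 4354 in replicate 1 and 7402 in replicate 3), and eIF2beta ranked 4795 (266 bp upstream, 8356 in replicate 1 and 3138 in replicate 3). eIF2alpha, the subunit that stress kinases phosphorylate, was close to the end of the list at rank 29803, with a −log10 q-value of 0.181. With replicate 3 taken alone eIF2beta entered the strongest 3350, which puts the count for the complex at 1 of 3 genes rather than 0.

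In eIF2B the beta subunit gene had the strongest peak of all members (rank 6, signal 992, X from 2703704 to 2704071), ranked 6 in replicate 1 and 3 in replicate 3. This summit lay 677 bp upstream of eIF2Bbeta but 42 bp from the start of the divergent gene Ugalt, whose product carries UDP-galactose across Golgi membranes. A separate pooled peak sat at the start of eIF2Bbeta itself, 14 bp downstream of the TSS (X from 2704377 to 2704792), at rank 5525 with a signal of 47.7. The signals of these peaks, from the same list, were 992 and 47.7, and the strong one was nearer to Ugalt. With a limit of 500 bp eIF2B had no gene with an optimal peak, against 17.9% of all protein-coding genes. eIF2Bdelta ranked 4495, eIF2Bgamma 5528 and eIF2Bepsilon, the catalytic subunit, 12892, all below the optimal set. eIF2Balpha had no pooled peak and a single one in replicate 3 at rank 28732.

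**Figure D2:**
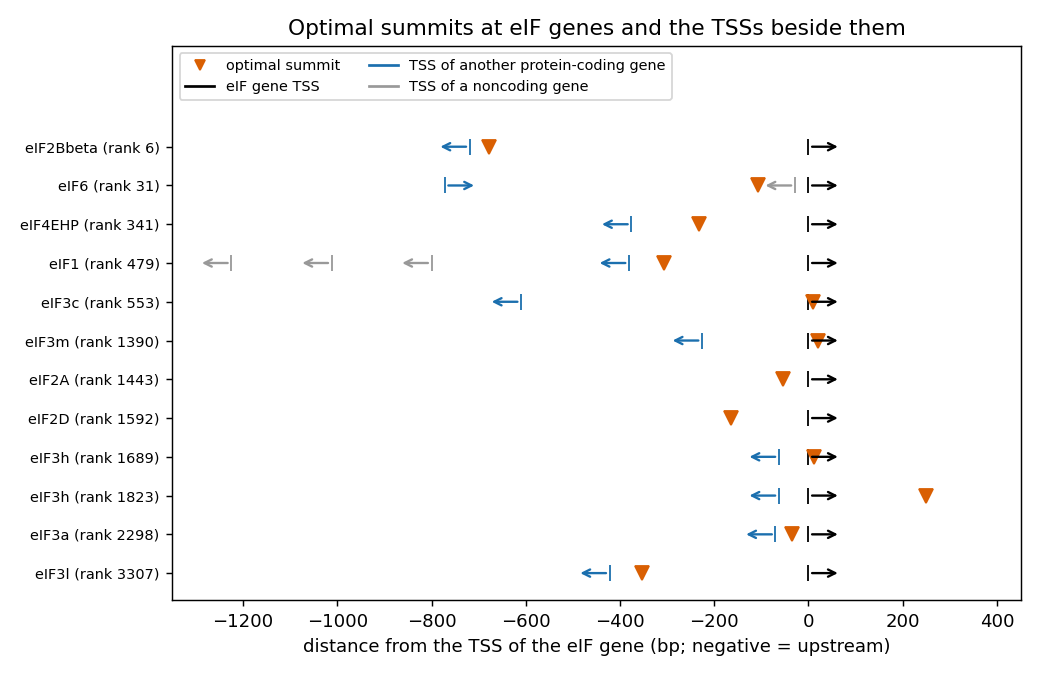
Optimal summits (triangles) at the 11 eIF genes, drawn by distance in bp from the TSS of the eIF gene, which points right from 0; arrows are TSSs of other genes within 1000 bp of the summit, pointing in the direction of transcription. The summit of eIF2Bbeta lies at -677 bp beside the TSS of Ugalt, and those of eIF3c, eIF3m and eIF3h lie between 9 and 20 bp downstream of the start, with a further one of eIF3h at 250 bp.

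The eIF4 genes had the lowest share of the classes of more than 3 genes, 1 of 13 (7.69%, against 20.4% of all protein-coding genes). That gene was eIF4EHP, whose product binds the cap but not eIF4G and represses maternal mRNAs such as caudal and hunchback in the early embryo. Its peak ranked 341 (signal 215), with 391 in replicate 1 and 309 in replicate 3. The peak was cut to 110 bp (3R from 24109084 to 24109193), with the summit at its edge, 232 bp upstream of eIF4EHP and 144 bp upstream of the divergent gene CG18428. The window around it was the poorest in G and C of the 12, at 22.4%.

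The cap-binding and helicase core of the group had weaker peaks. eIF4A, the helicase, came nearest to the optimal set, with 5 pooled peaks around its TSSs, the strongest of rank 4010 (signal 58.7, 600 bp upstream) and 3 more between ranks 4881 and 6057. The strongest shares the −log10 q-value of 3.95 of the optimal peaks. Further down were eIF4G2 (rank 4625), eIF4G1 (6989), eIF4E1 (7334) and eIF4H1 (7398). eIF4G2, an eIF4G variant needed for male meiosis, ranked 3059 in replicate 1 and 4331 in replicate 3, so that replicate 1 alone counts it among the strongest 3350. That peak of replicate 1 was a separate one, 971 bp downstream of the TSS, while in replicate 3 and the pool the strongest summit was 17 bp downstream. eIF4G1 lay at 16223 in replicate 1 and 4223 in replicate 3. eIF4H1 lay at 4770 and 20031, and its peak in replicate 3 was one that eIF2alpha, the divergent neighbour, also had within 1000 bp. eIF4B, which lies in the pericentromeric part of 3L, had no pooled summit within 154096 bp of its TSS and a single weak peak in replicate 3 (rank 25306). eIF4E6 had one in replicate 1 (rank 16833). eIF4E3, eIF4E4, eIF4E5, eIF4E7 and eIF4H2 had no peak in any list.

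The remaining factors had optimal peaks at 4 of 7 genes (57.1%, against 20.4% of all protein-coding genes), and all 7 had a pooled peak (background 62.4%). eIF6, which binds the large ribosomal subunit and stops it from joining early, had the second strongest peak of the members (rank 31, signal 571, 2R from 23850235 to 23850564). The ranks were 32 in replicate 1 and 34 in replicate 3. The summit lay 107 bp upstream of eIF6, 78 bp into the antisense transcript asRNA:CR45928 and within an intron of ytr, which is transcribed in the same direction as eIF6. No other protein-coding TSS was closer than 665 bp, so among coding genes eIF6 was the nearest.

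eIF1, which guards start codon choice, shared a peak (rank 479, signal 185, 3L from 3222980 to 3223113) with RpL28, a gene of the large ribosomal subunit, and with small nucleolar RNA genes that lie within RpL28. The summit was 75 bp upstream of RpL28 and 306 bp upstream of eIF1, and it ranked 516 in replicate 1 and 553 in replicate 3. A second pooled peak lay 97 bp upstream of the eIF1 start, at rank 6267. As with eIF2Bbeta, the weaker peak was the one nearer to the start of the factor gene.

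eIF2A and eIF2D have counterparts that have been tied to alternative delivery of the initiator tRNA and to reinitiation in mammals. They were the only members whose optimal summit had no TSS of another gene within 1000 bp. eIF2A had its summit 54 bp upstream of the nearest TSS, within the 5′ UTR of a longer transcript (rank 1443, signal 108, 3L from 21824703 to 21825118), and ranked 1480 in replicate 1 and 1307 in replicate 3. eIF2D had its summit 165 bp upstream (rank 1592, signal 102, 3R from 29151751 to 29152166) and ranked 1273 and 2750. Of the others, eIF5B ranked 4607 (5698 in replicate 1 and 2066 in replicate 3), eIF5 8029 and eIF1A 10057. eIF5B was thus among the strongest 3350 of replicate 3 but not of replicate 1.

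The replicates gave similar orders for the strong members and wider gaps for the weak ones. Of the 11 genes with an optimal peak, 10 were among the strongest 3350 peaks of both replicates. Apart from these, replicate 1 alone added eIF4G2, and replicate 3 alone added eIF2beta and eIF5B. The optimal set was selected for agreement between these replicates, so agreement within it is partly built in. Of the 31 members with a pooled peak, 30 had one in both replicates as well. The relaxed lists of replicates 1 and 3 put a peak at 62.7% and 62.4% of all protein-coding genes. The pooled list derives from the same reads, so this overlap is partly built in too. It was counted by gene and not by peak. At eIF2alpha the pooled summit lay 34 bp downstream of the TSS and that of replicate 3 lay 765 bp upstream.

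**Figure D3:**
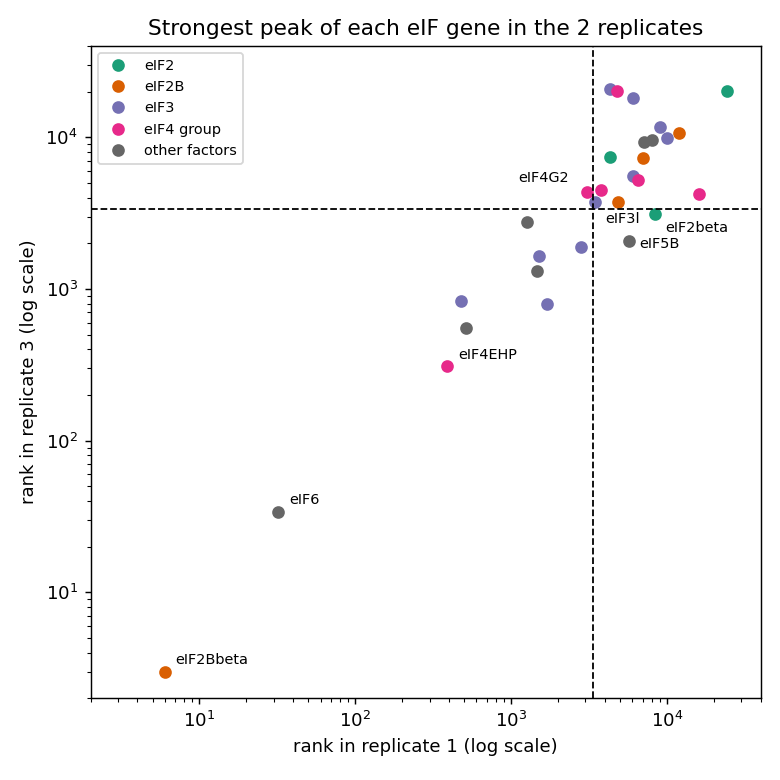
Rank of the strongest peak within 1000 bp of each eIF gene in replicate 1 (x axis) against replicate 3 (y axis), both on log scales, for members with a peak in both; dashed lines mark rank 3350. eIF2Bbeta (6 and 3) and eIF6 (32 and 34) lie near the diagonal, and eIF5B (5698 and 2066) and eIF4G2 (3059 and 4331) fall on different sides of the lines.

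The genes with no peak were largely the later-numbered duplicates. The annotation numbers duplicates in 6 families (eIF3d, eIF3f, eIF3g, eIF4E, eIF4G and eIF4H), with 6 first members and 10 later ones. Of the 10 later ones, 1 had a pooled peak (eIF4G2), against 5 of the 6 first ones and 25 of the 28 members whose symbol carries no duplicate number. The share of all protein-coding genes with a pooled peak was 62.4%. The 8 members with no peak in any relaxed list (18.2%, against 29.0% of all protein-coding genes) were all later-numbered duplicates, namely eIF3d2, eIF3f2, eIF3g2, eIF4E3, eIF4E4, eIF4E5, eIF4E7 and eIF4H2. eIF4E3 is known for its role in spermatogenesis. All 11 members with an optimal peak were among the 28 whose symbol carries no duplicate number. The grouping goes by symbol alone, so these 28 include eIF4EHP, whose product binds the cap as eIF4E does. They are therefore not all genes without a duplicate. The 6 first members thus had no optimal peak either, where 20.4% of all protein-coding genes had one. This grouping was made after the values were seen, and it is a description of these lists.

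Where an optimal peak was present at an eIF gene it lay at about the same distance as at other genes. The median distance from the strongest summit to the nearest of the gene's own TSSs was 107 bp for the 11 members and 157 bp for the 2848 protein-coding genes, and 72.7% and 69.2% of them lay within 250 bp. The summit was upstream in 8 of 11 members and in 84.7% of all genes. The peak also lay within 1000 bp of another protein-coding TSS in 9 of 11 members (81.8%), against 64.0% of all genes. The eIF gene had the nearest TSS in 6 of 11 (54.5%), against 66.9%. The median rank was 1390 for members and 1485 for all genes. These differences were not tested.

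Among other translation genes, 9 of 19 regulators of initiation had an optimal peak (47.4%, against 20.4% of all protein-coding genes). The strongest was at Lk6, the kinase that phosphorylates eIF4E (rank 4, signal 1056, 976 bp upstream). Next came pAbp, the poly(A)-binding protein gene (rank 822, 521 bp downstream), Thor, which encodes the eIF4E-binding protein that blocks eIF4G (rank 928, 9 bp downstream), NAT1, an eIF4G-like gene (1178), and the kinase gene mTor (1588). The ribosome recycling gene pix (2000), the helicase gene bel (2079), kra, which encodes a mimic of eIF5 (2368), and Paip2, a gene for an inhibitor of pAbp (2376), followed. Of these peaks, those of pAbp (snoRNA:Psi18S-1347a), mTor (Vha68-1), pix (Srp68) and kra (SecS) were shared with the gene in brackets. The genes of the eIF2alpha kinases, Gcn2 (pooled rank 14282) and PEK (14110), had weak peaks, and so did PPP1R15 (4909), whose product directs a phosphatase to eIF2alpha. Of the other regulators without an optimal peak, mxt (4091) and MCTS1 (4092) came nearest to the set, S6k (4996), Pdcd4 (9979) and DENR (18954) were weaker, and cup and 4E-T had no pooled peak.

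Of the 9 elongation and termination genes, 5 had an optimal peak (55.6%, against 20.4% of all protein-coding genes). These were eEF1gamma (rank 240), eEF2 (rank 1024, with the summit on the TSS), eRF1 (1414), eEF1alpha1 (1530) and eEF5 (1890). The peaks of eRF1 and eEF5 were shared with Rbbp5 and ppk29. Those without one were eEF1beta (pooled rank 3575), eRF3 (5939), eEF1delta (20726) and eEF1alpha2 (25546). The shares were 73.9% for cytoplasmic ribosomal protein genes (68 of 92) and 38.4% for mitochondrial ones (28 of 73), against the same 20.4%. Among these 5 gene lists the eIF genes had the lowest share, at 25.0%, and the difference was not tested.

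**Figure D4:**
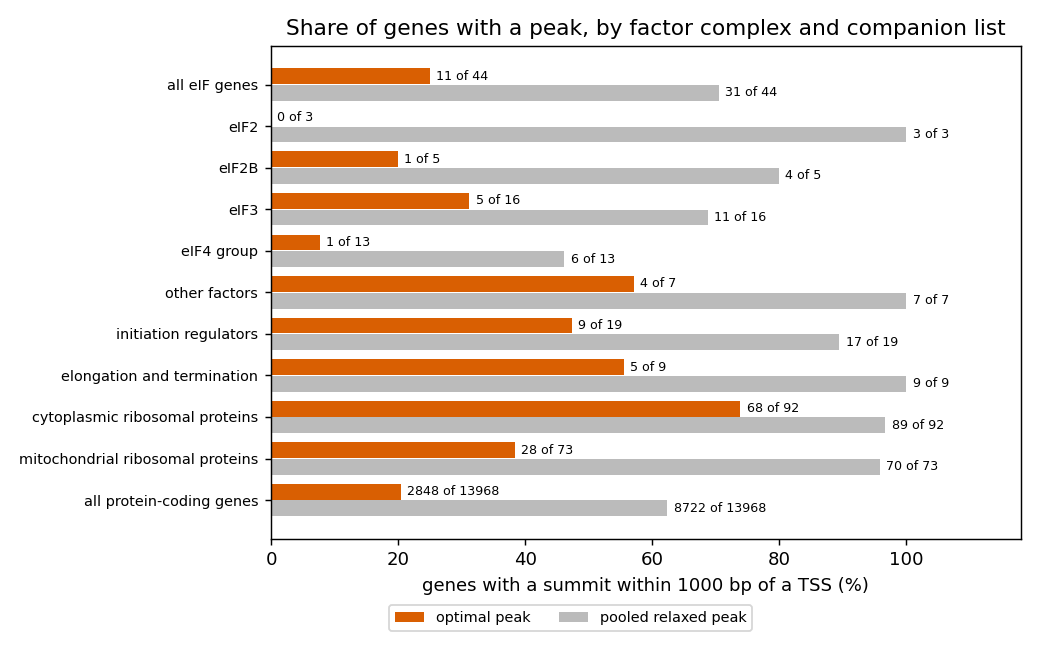
Percent of genes with a summit within 1000 bp of a TSS (x axis) for the eIF genes, their classes, other translation gene lists and all protein-coding genes, in the optimal set and in the pooled relaxed list; counts stand beside the bars. The eIF genes lie at 25.0% in the optimal set, near the 20.4% of all genes, and cytoplasmic ribosomal protein genes at 73.9%.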

How the data were processed

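The samples were 2 anti-GFP ChIP-seq libraries of Bteb2-GFP embryos, 1 group, with replicate numbers taken from the labels. The authors deposited peak lists without a header in narrowPeak order. Column 7 is the authors' signal value, whose scale differs between lists, and column 9 is the deposited −log10 q-value of their peak caller. Per the file notes, each relaxed list derives from the aligned reads plus 1 file that both replicates share, and the optimal set from the relaxed lists. Which aligner, caller and threshold were used is not given in the sources used here. Lists on dm3 were not used. The labels call the replicates biological but do not describe separate collections, so their spread may be technical in part.

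Annotation was Ensembl release 115 which gives 23694 TSS positions for 18277 genes on the chromosome arms (13968 protein-coding), and sequences came from the Release 6 genome of RefSeq (dm6). A summit is column 2 plus column 10, written 1-based. The 3350 strongest peaks of each replicate stand for that replicate alone. Classes were set by symbol, and every member was named, with the genes sharing its optimal peak and the companions with an optimal peak; companions without one were named to complete the list. The members and lists were chosen with earlier results of these data known, the motifs, promoter windows and duplicate families were added after the peaks were seen, and no test was made. Assignment of summits to TSSs was tested on simulated data with 200 planted summits. Versions were matplotlib 3.10.9, pandas 2.3.3, NumPy 2.4.6 and Python 3.11.15.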

Additional observations from a re-analysis of the deposited data

How the results depend on the processing

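The number of eIF genes with an optimal peak, 11, stayed between 8 and 11 with limits of 500 and 250 bp, with any base of the peak within 1000 bp, with the 5′-most TSS only and with the stronger 1675 optimal peaks (18.2 to 25.0% of members, against 11.5 to 21.3% of all protein-coding genes), and lay at 11 to 12 in single replicates. It moved to 6 (13.6%, background 14.2%) when a summit counted only for the nearest TSS, as did the number in replicate 1. In the strongest peaks of replicate 3 the same rule left 9 members (20.5%), against 1958 of 13968 protein-coding genes. The number with a pooled relaxed peak, 31 (70.5%, background 62.4%), lay between 26 and 31. The gap in percentage points was wider within 250 bp (63.6%, background 46.8%) and 500 bp (70.5%, background 55.9%). It was also wider in the 15000 strongest pooled peaks, with 29 members (65.9%) against 6982 of 13968 protein-coding genes. It was narrower under the nearest TSS rule (59.1%, background 52.3%) and with any base of the peak within 1000 bp (70.5%, background 64.4%). By complex, the nearest TSS rule (background 14.2%) moved eIF2B and eIF4 from 1 to 0 and the remaining factors from 4 to 2. Under it eIF3 went from 5 to 4 of 16 genes (25.0%), and eIF2 stayed at 0. Limits of 500 and 250 bp (background 17.9% and 14.8%) moved eIF2B from 1 to 0. Single replicates (background 20.2% and 20.3%) gave 0 to 1 genes for eIF2 and 1 to 2 for eIF4. They gave 1 for eIF2B, 4 for eIF3 and 4 to 5 for the remaining factors. The cause of these moves was not tested. No paired analysis was possible because there is 1 group. Depth is unknown, so no interval can be given, and a peak that is missing was not detected at this depth rather than shown to be absent. With 2 replicates and no control lists, ranks show spread but no error.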
